A study of Zea mays with 12 samples.

Results

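The genotype by ABA interaction at 1 h asks whether maize seedlings homozygous for mop1-1 answered abscisic acid (ABA) differently from their homozygous WT siblings. It was measured for each feature as a difference of differences, the change from MS to ABA in mop1-1 minus the change from MS to ABA in WT, on the log2 scale. All 12 libraries of the series entered it, 3 in each of the groups WT MS, WT ABA, mop1-1 MS and mop1-1 ABA. A positive value means that the ABA-treated libraries stood higher, relative to MS, in mop1-1 than in WT. Of 38444 features in the count table, 26401 reached at least 0.58 CPM (counts scaled to a common library size) in at least 3 libraries and were tested. They comprised 19516 annotated genes, 6856 loci that the authors assembled from the reads and 29 microRNA genes.

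The seedlings were grown to the V3 stage, and their roots were placed for 1 h in liquid MS medium that held 50 µM ABA or none. RNA was taken from the shoots, so that the roots met the medium and the shoots were measured. The mop1-1 mutation had been introgressed into the B73 inbred, and both genotypes descended from a selfed heterozygous plant. Sequence linked to mop1 and the mutation itself therefore cannot be told apart in any comparison of the genotypes. mop1 was not analysed here.

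MOP1 is the maize RNA-dependent RNA polymerase of RNA-directed DNA methylation, the plant pathway in which small RNAs guide methylation to transposons and to the edges of genes. ABA is the hormone of water deficit. When ABA binds its receptors, these hold back PP2C phosphatases, which frees SnRK2 kinases to act on bZIP transcription factors and, through them, on stress genes. Glutathione transferases couple glutathione to toxic or reactive compounds, and MRP-type transporters carry such conjugates into the vacuole.

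The libraries summed to 38295994 to 65574775 counts, and the shallowest was replicate 2 of mop1-1 ABA. Replicates spread most in WT without ABA, with a biological coefficient of variation of 0.347, against 0.259 in WT ABA, 0.288 in mop1-1 ABA and 0.307 in mop1-1 MS. The study calls the replicates biological, and the number of plants in each was not given in the sources used here. In whole shoots, fewer cells of a type and less RNA per cell cannot be told apart. The shoot origin showed in rca1, which encodes Rubisco activase and lay at 361 to 809 CPM in all 12 libraries, and in psbs1, a photoprotection gene of photosystem II, at 1490 to 2594 CPM. MIR156e, a precursor of the microRNA miR156, separated the genotypes, with 16.1 to 22.6 CPM in the 6 WT libraries and 1.31 to 2.66 CPM in the 6 mop1-1 libraries. Its interaction was -0.02 (SE 0.36, unadjusted p = 0.9556, edgeR), the gap being of like size with and without ABA.

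By the quasi-likelihood test of edgeR, 0 of the 26401 features were called (0%), where a call needed a Benjamini-Hochberg adjusted p no higher than 0.05 together with a log2 difference of 0.95 or more either way. The smallest adjusted p was 0.2758, and 1120 features (4.24%) had an unadjusted p under 0.05. Of these, 600 were positive (2.27% of features tested) and 520 negative (1.97%). Uniform p-values would put a share of 0.05 under that threshold, so 4.24% is no excess. DESeq2, run as an alternative on the same features, called 27, of which 19 were positive (0.075% of the 25350 features to which it gave an adjusted p) and 8 negative (0.0316%). The likelihood ratio test of edgeR called 22, of which 17 were among the 27, and limma-voom called 0. Calls of single features thus depended on the test, and p-values of both edgeR and DESeq2 are given for them.

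The 27 features that DESeq2 called comprised 16 annotated genes and 11 assembled loci. In 9 of them at least one group held no count at all. In the other 18 all 4 groups were above 3 counts, and 15 of these were positive and 3 negative. The effect of ABA had opposite signs in WT and mop1-1 in all 18, and it was the larger in WT in 16 of them. A call needs a large difference of the effects, which favours opposite signs. Of the 600 positive and 520 negative features at an unadjusted p under 0.05 by edgeR, 555 and 469 had opposite signs. The effect was the larger in WT in 409 of the 600 and in 344 of the 520, whatever the signs. The libraries with ABA lay apart from those with MS in both genotypes for 7 of the 27, in WT alone for 13 and in mop1-1 alone for 2, and they overlapped in both for 5. Over all 26401 features tested, they lay apart in WT in 3140 and in mop1-1 in 2564. The 27 were called on these same values, so their separation is not independent evidence.

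**Figure D1:**
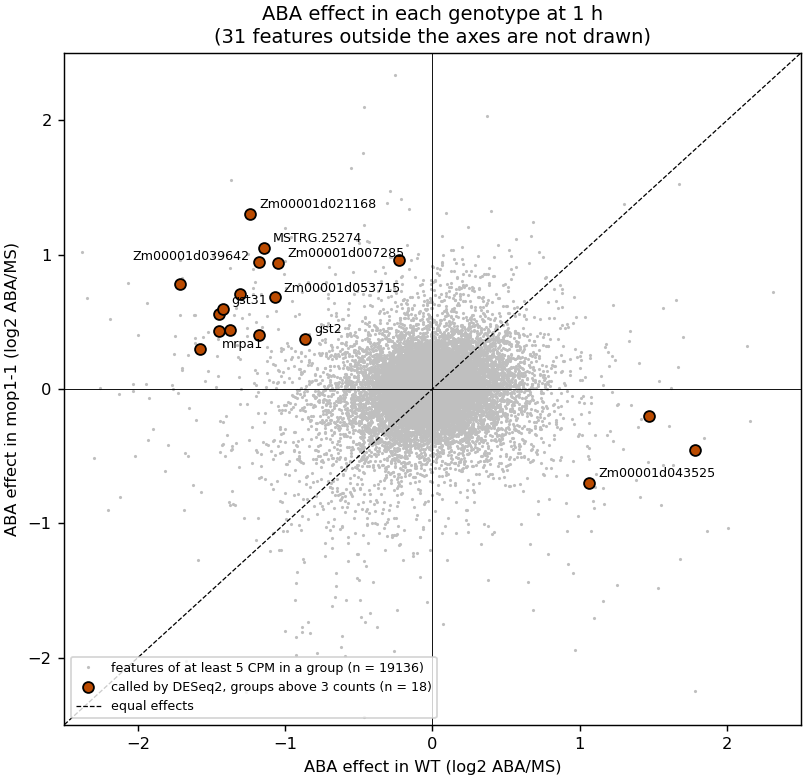
The effect of ABA in WT (horizontal axis, log2) is plotted against the effect of ABA in mop1-1 (vertical axis, log2) for the 19136 features with a mean of at least 5 CPM in some group (grey, 31 of them outside the axes). The 18 features that DESeq2 called with every group above 3 counts (orange) lie where the effects have opposite signs, 15 in the upper left and 3 in the lower right, and the dashed line marks equal effects.

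Across the 19136 features of at least 5 CPM in the highest group, the effects of ABA in the 2 genotypes, which share no library, had a Pearson r of 0.069 and a Spearman rho of 0.111 across features, which are not independent replicates. The median standard error was 0.26 log2 units for the interaction and 0.18 for the effect of ABA in either genotype, so that the interaction was the less precise quantity. The median interaction over all features tested was 0.01. The scatter of the effects of ABA shows this as a round cloud around 0 with little slope.

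Some features stood apart in every library and in opposite directions. In 59 features (0.223% of those tested) each mop1-1 ABA library was above each mop1-1 MS library while each WT ABA library was below each WT MS library, and in 41 (0.155%) the reverse held. For comparison, the libraries parted in both genotypes and in the same direction in 86 features that were higher with ABA (0.326%) and in 91 that were lower (0.345%). Both counts with opposite directions were below these. In either direction, libraries lay apart in 3140 features in WT and in 2564 in mop1-1. With 3 libraries against 3, some features part in both genotypes without any effect of ABA, and how many was not tested. The 100 features with opposite directions are therefore not shown to be a class of opposite responses. Of the 100 features with opposite directions, 33 were assembled loci (33%, against 26% of all features tested), and 15 had a log2 difference of at least 0.95 and at least 5 CPM in the highest group, 11 positive and 4 negative. Of the 100, 1 carried a gene name, OBAP2B (Zm00001d011755), with an interaction of -3.46 (SE 0.93) and a highest group mean of 1.45 CPM.

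The assembled locus MSTRG.25274 had the smallest p by edgeR. Its CPM in replicates 1, 2 and 3 were 51.2, 47.5 and 58.8 in WT MS and 20.4, 23.1 and 27.8 in WT ABA. They were 19.1, 29.4 and 29.2 in mop1-1 MS and 60.3, 38.1 and 62.6 in mop1-1 ABA. WT ABA and mop1-1 MS thus held the low libraries, WT MS and mop1-1 ABA the high ones, and no library of the former groups reached one of the latter. The interaction was 2.199 (SE 0.30, adjusted p = 0.2758 by edgeR and 1.36e-07 by DESeq2).

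Zm00001d021168, an annotated gene without a name in the tables used here, followed the same order. In WT its CPM were 50.1, 40.1 and 52.7 with MS and 22.5, 18.5 and 19.7 with ABA. In mop1-1 they were 17.1, 35.6 and 35.5 with MS and 83.3, 45.6 and 89.0 with ABA. Neither genotype's groups overlapped, and replicates 1 and 3 of mop1-1 ABA were the highest of the 12 libraries. The interaction was 2.54 (SE 0.41, adjusted p = 0.387 by edgeR and 4.515e-06 by DESeq2).

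Zm00001d053715 had 49.2, 46.4 and 82.4 CPM in WT MS against 25.5, 30.1 and 29.0 in WT ABA, and 36.7, 50.4 and 53.1 in mop1-1 MS against 89.2, 69.6 and 66.1 in mop1-1 ABA. Its groups did not overlap in either genotype, and replicate 3 of WT MS stood well above the other WT libraries. The interaction was 1.75 (SE 0.31, adjusted p = 0.7477 by edgeR and 0.0004893 by DESeq2), and 1.44 by edgeR without replicate 3 of WT MS.

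Zm00001d039642 and Zm00001d007285 were of the same kind, and both belong to the MIM genes. The study itself chose that set on these libraries for a difference between the genotypes with ABA that was not called without ABA. Its members also have promoter homology to MOP1-dependent small RNAs. Zm00001d039642 was at 3.77, 5.5 and 8.93 CPM with MS and 2.57, 2.75 and 2.73 with ABA in WT, and 5.97, 5.47 and 5.22 with MS and 14.9, 7.81 and 9.30 with ABA in mop1-1. Zm00001d007285 was at 19.2, 12.3 and 23.1 CPM with MS and 10.1, 7.46 and 8.90 with ABA in WT, and 10.4, 10.6 and 9.77 with MS and 28.4, 11.01 and 19.5 with ABA in mop1-1. In the latter gene replicate 2 of mop1-1 ABA lay only just above the mop1-1 MS libraries. The interactions were 2.12 (SE 0.43) and 1.99 (SE 0.43), with adjusted p of 0.97 and 0.9768 by edgeR and 0.009364 and 0.01268 by DESeq2.

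In the opposite direction, Zm00001d043525, also a MIM gene, was higher with ABA in WT and lower with ABA in mop1-1. Its CPM were 16.9, 15.2 and 14.2 in WT MS and 34.4, 36.3 and 26.2 in WT ABA. They were 30.0, 24.5 and 25.4 in mop1-1 MS and 18.8, 11.1 and 19.2 in mop1-1 ABA. The groups did not overlap within either genotype, and the interaction was -1.76 (SE 0.28, adjusted p = 0.387 by edgeR and 9.088e-05 by DESeq2).

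The other features of this direction that met the size rule were called by neither test. Zm00001d014035 had an interaction of -1.12 (SE 0.28), with 3.88 to 4.10 CPM with MS and 4.74 to 5.02 with ABA in WT, and 5.68 to 7.21 with MS and 2.73 to 4.11 with ABA in mop1-1. Zm00001d003224 had -1.07 (SE 0.30), and its mop1-1 groups were separated by little, 5.66 CPM in the lowest MS library and 5.57 in the highest ABA library. Zm00001d006854 had -3.01 (SE 0.87) and also a gap between the genotypes without ABA, 0.31 to 0.57 CPM in WT MS and 4.04 to 9.11 CPM in mop1-1 MS. Their adjusted p was 0.9999 in edgeR, and 0.1038, 0.3464 and 0.1606 in DESeq2. Of these, Zm00001d006854 rested on the fewest counts.

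**Figure D2:**
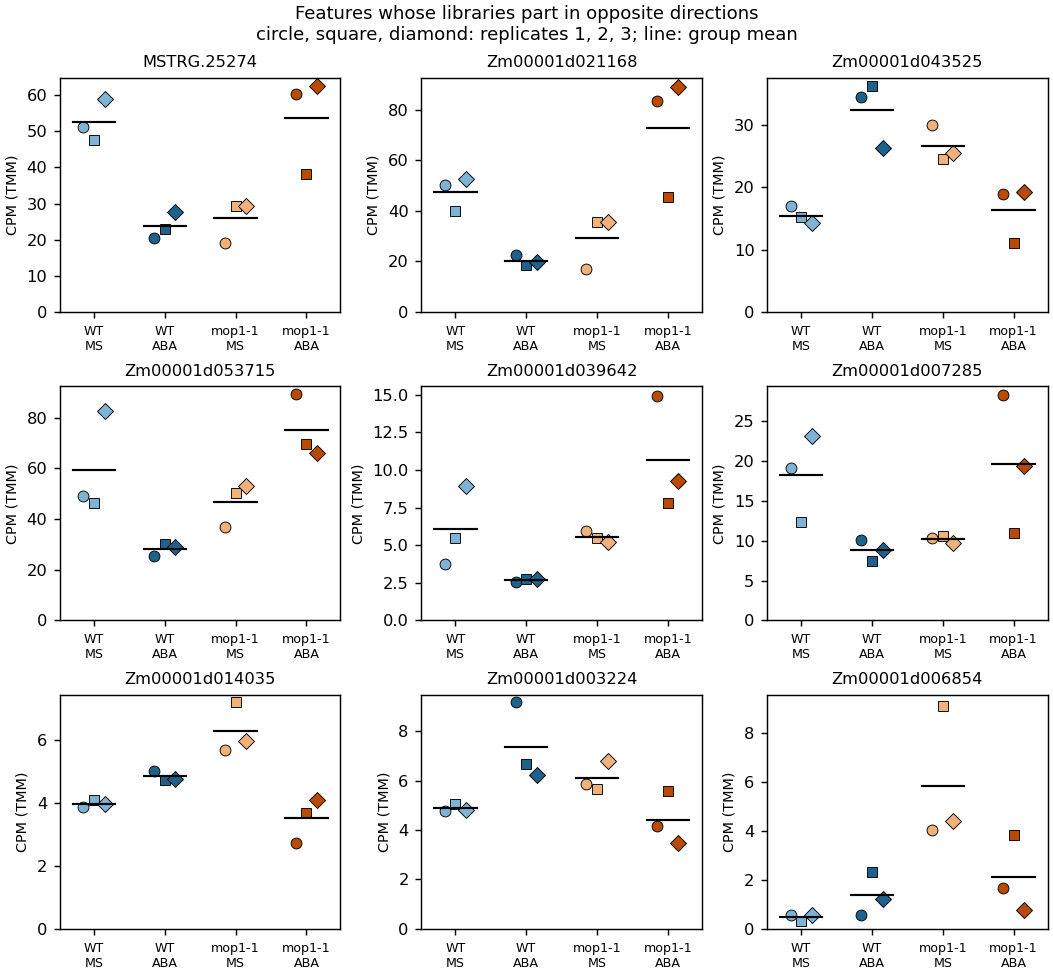
CPM after TMM scaling (vertical axes, from 0) in the 12 libraries for 9 of the 15 features whose libraries parted in opposite directions in WT and mop1-1 and that met the size rule, the 5 positive ones of smallest p and the 4 negative ones. Points are libraries, with the replicate given by the shape, and lines are group means of 3 libraries. In MSTRG.25274 the WT ABA and mop1-1 MS libraries reach at most 29.4 CPM and the others start at 38.1 CPM.

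In other unnamed features the libraries parted in WT alone. Zm00001d005002 had 5.60, 4.89 and 7.71 CPM in WT MS and 2.03, 2.31 and 3.02 in WT ABA, whereas in mop1-1 the libraries overlapped, 2.75 to 3.99 CPM with MS and 3.49 to 7.04 with ABA. Its interaction was 2.01 (SE 0.42, adjusted p = 0.97 by edgeR and 0.0128 by DESeq2). Zm00001d006417, a MIM gene, showed the mirror image, with 2.95 to 4.46 CPM in WT MS and 9.63 to 10.3 in WT ABA, against 3.90 to 4.87 and 2.83 to 5.22 in mop1-1. The 3 WT ABA libraries were the only ones above 5.22 CPM, and the interaction was -1.67 (SE 0.35, adjusted p = 0.97 by edgeR and 0.01426 by DESeq2).

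Zm00001d042739 and Zm00001d026948 were lower with ABA in WT in every library, and overlapped in mop1-1. Zm00001d042739 had 15.6 to 35.8 CPM with MS and 5.35 to 10.02 with ABA in WT, and 11.9 to 17.1 with MS and 9.53 to 32.3 with ABA in mop1-1. Zm00001d026948 had 16.8 to 46.2, 7.50 to 13.7, 15.0 to 22.8 and 20.1 to 29.1 CPM in the same order of groups. The interactions were 2.496 (SE 0.61) and 2.004 (SE 0.48), with a DESeq2 adjusted p of 0.02069 and 0.03148 and an edgeR adjusted p of 0.9999 in both.

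The effect lay in mop1-1 in a pair of genes. Zm00001d001839 had 9.73 to 14.7 CPM in WT MS and 9.56 to 11.1 in WT ABA, which overlapped, but 9.94, 10.9 and 8.05 in mop1-1 MS and 20.4, 15.8 and 19.9 in mop1-1 ABA. The 3 mop1-1 ABA libraries were the highest of the 12, with an interaction of 1.19 (SE 0.26, adjusted p = 0.9768 by edgeR and 0.0362 by DESeq2). Zm00001d000408 had 28.3 to 37.8 CPM in the 9 libraries of the other groups and 49.8, 49.5 and 55.5 CPM in mop1-1 ABA. Its interaction of 0.80 (SE 0.16) was below the fold threshold, with an adjusted p of 0.97 by edgeR and 0.01555 by DESeq2.

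Among assembled loci, MSTRG.14443, MSTRG.9903 and MSTRG.24950 were lower in each WT ABA library than in each WT MS library and overlapped in mop1-1, with interactions of 1.87 (SE 0.37), 1.58 (SE 0.34) and 1.88 (SE 0.41). MSTRG.23599 was higher in WT ABA, 2.83 to 3.61 CPM against 0.85 to 1.13 CPM in WT MS, and overlapped in mop1-1, 1.61 to 3.05 CPM with MS and 1.35 to 2.22 with ABA. Its interaction was -2.23 (SE 0.47). DESeq2 gave these loci adjusted p of 0.007399, 0.01994, 0.01426 and 0.01184, and the adjusted p by edgeR was 0.97 to 0.9999. Smaller differences with both genotypes apart were seen in Zm00001d021400 (0.81, SE 0.16), MSTRG.17822 (-0.75, SE 0.18) and Zm00001d052904 (-0.68, SE 0.16). Their adjusted p was 0.02237, 0.09959 and 0.09037 by DESeq2, and 0.97, 0.9999 and 0.9999 by edgeR. Zm00001d021400 was below the fold threshold and so was not called. MSTRG.2573 (-1.02, SE 0.27) and Zm00001d038780 (-1.45, SE 0.34) were apart in 1 genotype, and DESeq2 called neither.

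Of the 284 annotated genes with a name, 18 (6.34%) had an unadjusted p under 0.05, 11 positive and 7 negative, against 4.24% of all features tested. Some of the names came from regulators that the study lists among its MIM genes, a set chosen on these same libraries. Several of the 18 are MIM genes, among them gst2, gst31, gst7 and saf1. The higher share among named genes is therefore not independent evidence. The 11 positive genes were led by glutathione transferases, an MRP-type transporter and other genes whose group mean was lowest in WT ABA. This group of 6 genes (mrpa1, gst2, gst31, gst7, saf1 and In2-2) was put together after their values were seen. Glutathione transferases belong to a large family with similar sequences, so that reads may be shared between members.

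mrpa1 (Zm00001d046226) encodes an MRP-type ABC transporter. Its CPM were 202, 206 and 302 in WT MS and 65.7, 96.7 and 112 in WT ABA. In mop1-1 they were 159, 153 and 147 with MS and 258, 118 and 245 with ABA. WT ABA held the 3 lowest of the 12 libraries, whereas the mop1-1 groups overlapped through replicate 2 of mop1-1 ABA. The interaction was 1.81 (SE 0.40, adjusted p = 0.9999 by edgeR and 0.008967 by DESeq2).

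gst2 (Zm00001d024839) encodes a glutathione transferase and is a MIM gene. It had 109, 70.6 and 90.2 CPM in WT MS and 42.9, 47.1 and 58.2 in WT ABA. In mop1-1 it had 67.9, 68.7 and 101 CPM with MS and 105, 92.3 and 110 with ABA. The WT ABA libraries were again the lowest, and the mop1-1 groups overlapped only through replicate 3 of mop1-1 MS. The interaction was 1.24 (SE 0.28, adjusted p = 0.9999 by edgeR and 0.02875 by DESeq2).

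gst31 (Zm00001d027557), another glutathione transferase and MIM gene, had 72.9, 65.3 and 167 CPM in WT MS and 31.4, 44.8 and 37.6 in WT ABA. In mop1-1 it had 111, 72.8 and 71.0 CPM with MS and 156, 84.7 and 143 with ABA. Replicate 3 of WT MS was more than the other WT MS libraries together, and leaving it out lowered the interaction from 2.02 (SE 0.49) to 1.46 in edgeR. The adjusted p with all libraries was 0.9999 by edgeR and 0.02069 by DESeq2.

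saf1, In2-2 and gst7 also had their lowest group mean in WT ABA, and neither test called them. saf1 and gst7 are MIM genes. In2-2 (Zm00001d031666), first described as induced by herbicide safeners, had 18.2 to 44.6 CPM with MS and 10.6 to 15.1 with ABA in WT, and 21.2 to 33.2 with MS and 69.3, 18.1 and 64.0 with ABA in mop1-1. Replicate 2 of mop1-1 ABA was there below all mop1-1 MS libraries while the others were about 2 times the highest of them. The interactions were 1.94 (SE 0.52) for saf1 (Zm00001d028693), 2.12 (SE 0.61) for In2-2 and 1.39 (SE 0.51) for gst7 (Zm00001d042104), with DESeq2 adjusted p of 0.06308, 0.1038 and 0.5781. In gst7 the WT groups overlapped too.

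The same libraries were extreme in these genes. Replicate 3 of WT MS was the highest of its group in 5 of the 6 genes and replicate 2 of mop1-1 ABA was the lowest of its group in all 6. Replicate 1 of WT ABA was likewise the lowest of its group in all 6 (36.3% of all features tested). In the 15 positive features that DESeq2 called with every group above 3 counts, replicate 3 of WT MS was highest in 13 and replicate 2 of mop1-1 ABA lowest in 14, against 35.8% and 33.8% of all features tested, and replicate 1 of WT ABA was lowest in 10. High values in WT MS and low values in WT ABA raise a positive interaction, low values in mop1-1 ABA lower it, and what sets these libraries apart was not tested. DESeq2 called 18 features without replicate 3 of WT MS, 11 of them among the 27, and 38 without replicate 2 of mop1-1 ABA, 24 of them among the 27. Both settings were chosen after seeing the data.

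**Figure D3:**
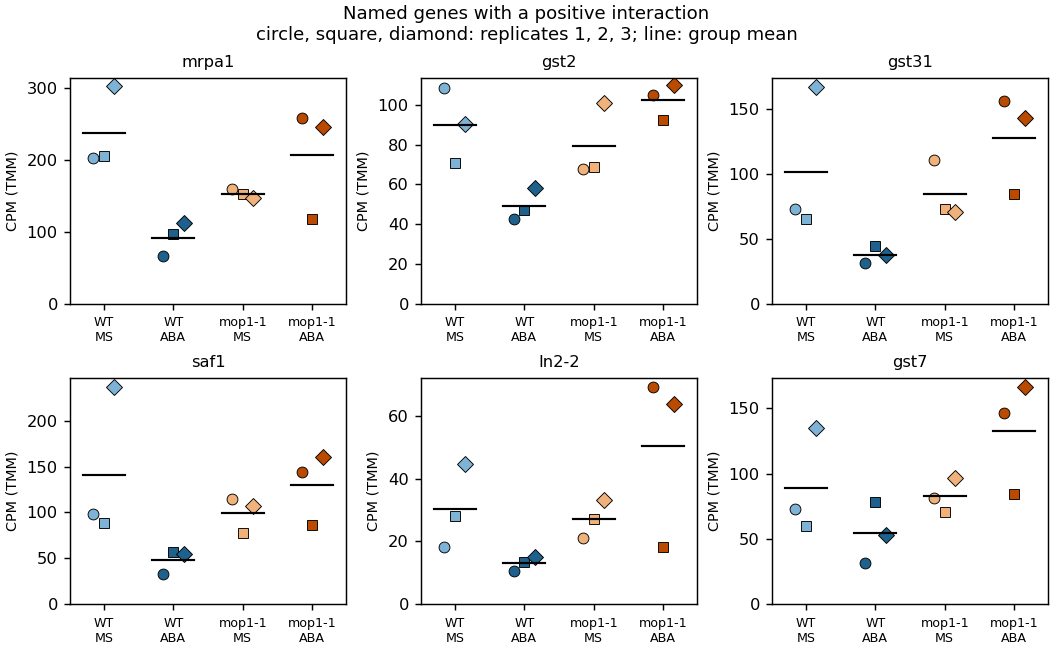
CPM after TMM scaling (vertical axes, from 0) of mrpa1, gst2, gst31, saf1, In2-2 and gst7 in the 12 libraries, with the replicate given by the shape and group means of 3 libraries as lines. The WT ABA mean is the lowest of the 4 in each gene, and replicate 2 (square) is the lowest mop1-1 ABA library throughout, for example 118 CPM against 245 and 258 CPM in mrpa1.

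Of the 6 glutathione transferases tested, all were positive, 3 had an unadjusted p under 0.05 (against 4.24% of all features tested) and DESeq2 called 2 (against 27 of 25350), with a median interaction of 0.84 against 0.01 over all features tested. The 3 were gst2, gst31 and gst7, MIM genes all, so their direction is not independent evidence. The median effect of ABA was -0.61 in WT and 0.27 in mop1-1. The remaining members, gst42, gst19 and gst12, had interactions of 0.30, 0.45 and 0.04. Since reads may be shared between them, the members are not independent.

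Among the other named genes with an unadjusted p under 0.05, PP2C28 (Zm00001d014291) encodes a PP2C phosphatase and was positive. It had 33.2, 40.6 and 69.9 CPM with MS and 22.9, 30.7 and 26.3 with ABA in WT, and 27.6 to 43.8 with MS and 38.04 to 48.4 with ABA in mop1-1. The interaction was 1.02 (SE 0.36, unadjusted p = 0.01498, adjusted p = 0.9999 by edgeR), and 0.65 without replicate 3 of WT MS. GLK52 (Zm00001d026542) had an interaction of 1.18 (SE 0.45) with its highest value, 11.1 CPM, in replicate 2 of WT MS. Among the negative ones, bHLH23 (Zm00001d006110) had -0.99 (SE 0.39) and TCP8 (Zm00001d042305), a transcription factor of the TCP family, -0.40 (SE 0.18).

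PP2C phosphatases, some of which brake ABA signalling, lay on both sides of 0. Of 6 PP2C phosphatases tested, 4 were negative and 2 positive. In each direction 1 had an unadjusted p under 0.05 by edgeR, and the median was -0.63. Over all features tested, 4.24% were under that p, both directions together. The 4 negative members are all MIM genes, so their direction and this median are not independent evidence. The 2 positive members, PP2C28 and PP2C30, are not MIM genes. Protein phosphatase 2C 26 (Zm00001d028752) had the smallest p of the negative members, with 10.7, 12.9 and 17.1 CPM with MS and 22.8, 18.3 and 15.5 with ABA in WT, and 16.6, 7.86 and 10.6 with MS and 11.8, 5.57 and 5.79 with ABA in mop1-1. Its groups overlapped in both genotypes, with an interaction of -1.06 (SE 0.47, adjusted p = 0.9999 by edgeR). The list median moved to -1.10 without replicate 1 of mop1-1 ABA. Protein phosphatase 2C A9 and protein phosphatase 2C A5, with -1.56 (SE 0.89) and -0.75 (SE 0.65), spread widely, and replicate 1 of WT MS was the highest of its group in both. Only 2 ABA receptors and 1 SnRK2 kinase were tested, at 0.42 and 0.48 and at 0.04, and none had an unadjusted p under 0.05.

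In the lists of transcription factors, 1 positive and 1 negative of 4 bHLH factors had an unadjusted p under 0.05 by edgeR. So did 1 of 8 WRKY factors and 1 of 8 AP2-EREBP and DREB factors, both negative. The bZIP and ABI, NAC, MYB and homeobox lists held none. The share over all features tested was 4.24%. Each list except that of the MYB factors held MIM genes, whose direction is not independent evidence. All 5 bZIP and ABI factors were negative, none at an unadjusted p under 0.05, with a median of -0.33. bZIP TF 4 (Zm00001d018178) illustrates their spread, at 120, 26.7 and 25.1 CPM with MS and 114, 81.6 and 92.8 with ABA in WT, and 17.1, 74.9 and 42.2 with MS and 44.2, 41.1 and 34.5 with ABA in mop1-1. Its groups overlapped in both genotypes, and the interaction of -0.91 had an SE of 0.82. Of 8 WRKY factors 5 were negative (median -0.13), of 8 AP2-EREBP and DREB factors 5 (median -0.34), of 4 bHLH factors 3 (median -0.65), of 4 homeobox factors 3 (median -0.19), of 4 NAC factors 2 (median 0.21) and of 4 MYB factors 2 (median -0.04). These medians moved with the setting, and their sign turned for NAC factors (-0.29 by limma-voom to 0.44 without replicate 3 of mop1-1 MS), homeobox factors (-0.56 without replicate 1 of mop1-1 ABA to 0.09 without replicate 3 of mop1-1 MS) and MYB factors (-0.15 to 0.10).

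WRKY TF 94 (Zm00001d050195) was the WRKY factor with the smallest p. It had 5.29, 4.79 and 3.93 CPM in WT MS and 7.50, 8.52 and 8.25 in WT ABA, which did not overlap. In mop1-1 it had 6.62, 2.59 and 4.68 CPM with MS and 4.64, 3.29 and 4.29 with ABA, which did. The interaction was -0.98 (SE 0.41, adjusted p = 0.9999 by edgeR), and -0.63 without replicate 1 of mop1-1 MS. Trihelix TF 22 (Zm00001d014938) was similar, at 11.1 to 16.7 CPM in WT MS and 20.0 to 21.7 in WT ABA, against 8.76 to 9.50 and 9.27 to 10.4 in mop1-1, with an interaction of -0.50 (SE 0.21). In both the WT ABA libraries were the 3 highest of the 12.

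These factors, like bHLH TF 9 and several phosphatases, belong to the 26 regulators that the study lists among its MIM genes. Of the 26, 23 were tested and 20 were negative, 12 of them with a higher mean with ABA in WT and a lower one in mop1-1, and the median was -0.63 (0.53 for the effect of ABA in WT and -0.27 in mop1-1). At an unadjusted p under 0.05 by edgeR there were 4 negative and 1 positive of the 23, against 1.97% and 2.27% of all features tested. Neither test called any. The study chose these genes on the same libraries for a difference between mop1-1 and WT with ABA that was not called without ABA. It then kept those with promoter homology to MOP1-dependent small RNAs. The first step comes close to the interaction itself, so the direction and share of these genes are not independent evidence. bHLH TF 9 (Zm00001d047999) was the positive one, at 2.83 (SE 1.02), but it did not exceed 1.08 CPM in any library, and the AP2-EREBP factor Zm00001d002867, at -2.06 (SE 0.86), did not exceed 1.92 CPM. The same holds for the 150 MIM genes tested, of which 21 were positive and 17 negative at an unadjusted p under 0.05 (25.3%, against 4.24% of all features tested) and 6 were called by DESeq2 (against 27 of 25350).

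All 4 histone genes tested were negative, with a median interaction of -0.61 and median effects of ABA of 0.59 in WT and -0.01 in mop1-1. Histones package DNA, and their transcripts are made mostly in dividing cells. histone2b1 (Zm00001d020580) had 111, 104 and 85.4 CPM in WT MS and 149, 152 and 120 in WT ABA, which did not overlap, whereas mop1-1 had 90.3 to 94.9 with MS and 66.6 to 106 with ABA, which did. his2b5 (Zm00001d051591), which encodes a histone H2B, and H4C13 (Zm00001d026015), which encodes a histone H4, were also apart in WT and overlapping in mop1-1, with interactions of -0.69 (SE 0.39) and -0.73 (SE 0.42). None of the 4 had an unadjusted p under 0.05, the smallest being 0.05299 for histone2b1 at -0.52 (SE 0.24), which was -0.35 without replicate 1 of mop1-1 ABA. Histone genes exist in many near-identical copies, so reads may be shared with genes not listed.

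In contrast, the photosynthesis genes showed interactions near 0. The 8 genes tested ranged from -0.22 to 0.19 with a median of -0.03, and none had an unadjusted p under 0.05. psbs1 had -0.14 (SE 0.25) and rca1 0.19 (SE 0.34). The 10 auxin genes had a median of 0.01 and ranged from -0.36 to 0.70.

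The jasmonate genes, the chaperones and the aquaporins were without a call as well. Of 5 jasmonate genes 4 were negative (median -0.29), led by ZIM TF 16 (Zm00001d027901, a repressor family of jasmonate signalling) at -1.02 (SE 0.49) and the lipoxygenase gene ts1 (Zm00001d003533) at -0.52 (SE 0.40). Of the 3 chaperones, bip1 (Zm00001d014993), an endoplasmic reticulum chaperone, had an effect of ABA of -1.04 in WT and -1.20 in mop1-1, with an interaction of -0.16 (SE 0.52). The small heat shock gene hsp22 (Zm00001d052194) had 2640, 1513 and 529 CPM in WT MS, a wide spread within a group, and an interaction of -0.71 (SE 0.65). The list median moved from -0.16 to -0.80 without replicate 1 of WT MS and to 0.19 without replicate 3 of WT MS. Of 3 aquaporins 2 were negative (median -0.22), with pip2f (Zm00001d019565), a water channel of the plasma membrane, at -0.22 (SE 0.37). ZIM TF 16 and hsp22 are MIM genes.

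**Figure D4:**
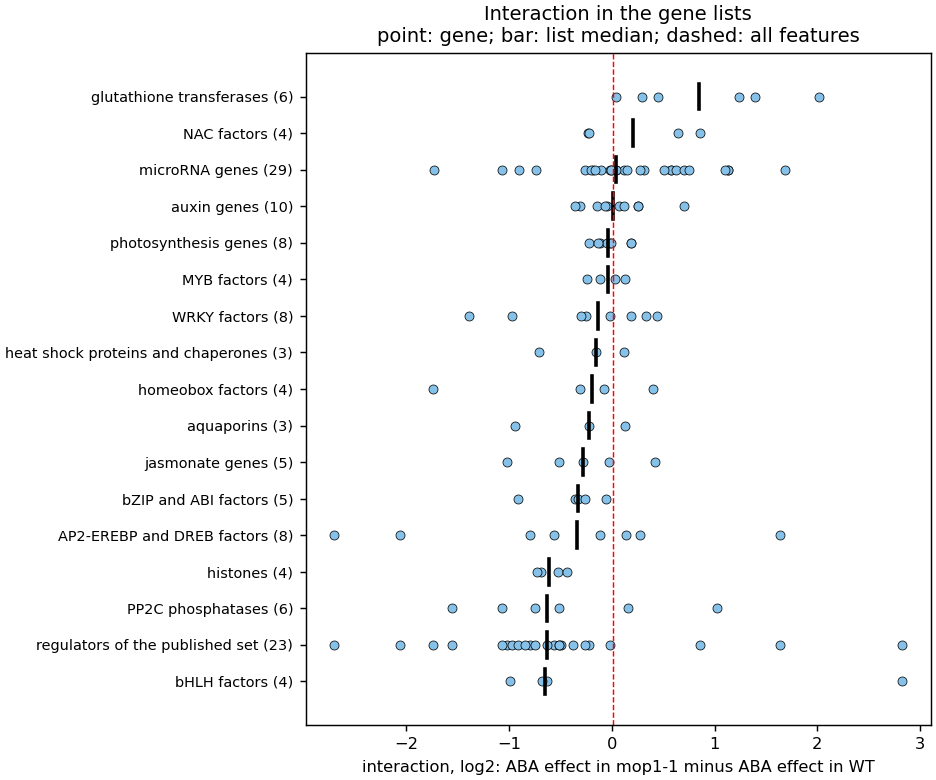
Interaction (horizontal axis, log2, ABA effect in mop1-1 minus ABA effect in WT) of each gene tested (points) in the gene lists (rows, with the number of genes tested), the list median (bars) and the median over all features tested (dashed line, 0.01). Glutathione transferases all lie above 0 (median 0.84) and histones all below (median -0.61), photosynthesis genes lie close to 0, and most other lists span it.

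Of the 29 microRNA genes tested, 18 were positive and 11 negative, with a median of 0.04. These are counts of precursor transcripts, not of mature microRNAs. MIR162, whose microRNA targets a Dicer-like transcript in Arabidopsis, had 1.05, 1.16 and 0.94 CPM in WT MS and 1.63, 1.90 and 2.195 in WT ABA, against 0.77, 1.58 and 0.63 with MS and 0.74, 0.50 and 0.39 with ABA in mop1-1. The WT groups did not overlap and the mop1-1 groups did, with an interaction of -1.73 (SE 0.62, unadjusted p = 0.0169, adjusted p = 0.9999 by edgeR). MIR156k had 1.13 (SE 0.46, unadjusted p = 0.03027 by edgeR) with overlapping groups in both genotypes, and MIR156j 1.13 (SE 0.59).

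The remaining 9 features that DESeq2 called had at least one group without a count. Zm00001d048554, an annotated gene, was the only one whose libraries parted in both genotypes. It had 2.33, 0.45 and 2.15 CPM in WT MS, 0 in all WT ABA and mop1-1 MS libraries, and 2.53, 0.05 and 0.31 in mop1-1 ABA. Taking 3 counts over a group as the most that a count of 0 allows, it was at least 90.1-fold lower with ABA in WT and at least 65.2-fold higher with ABA in mop1-1. The adjusted p was 0.97 by edgeR and 3.079e-08 by DESeq2, and replicate 2 of mop1-1 ABA was close to 0.

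Zm00001d045759 had 0 counts without ABA in WT but 9.13, 13.6 and 17.8 CPM in WT ABA, at least 773-fold higher, but was present in mop1-1 in both treatments except for 0 in replicate 3 of mop1-1 MS. MSTRG.29572 had 0 counts in WT MS, whereas WT ABA had 7.05, 8.65 and 0.23 CPM (at least 319-fold higher), and in mop1-1 4.002 to 15.0 with MS and 6.92 to 18.1 with ABA. Both were thus without a count in a single group, WT MS. MSTRG.8301 and MSTRG.8180 shared that pattern at lower counts, and replicate 3 of WT ABA was at 0 in both.

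MSTRG.22824, MSTRG.18997, MSTRG.22600 and Zm00001d051364 were present in some libraries of a group and at 0 in others. MSTRG.22600 was at 14.4 CPM in replicate 3 of WT MS and 0 in replicates 1 and 2, at 0 in WT ABA, at 29.7 CPM in replicate 3 of mop1-1 MS and 0 in replicates 1 and 2, and at 0.03, 17.9 and 40.7 CPM in mop1-1 ABA. The replicates of a group thus differed from each other as much as the groups did. The edgeR adjusted p was 0.9999 for each of these 4 features, and the DESeq2 adjusted p was 0.001463 to 0.0362.

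**Figure D5:**
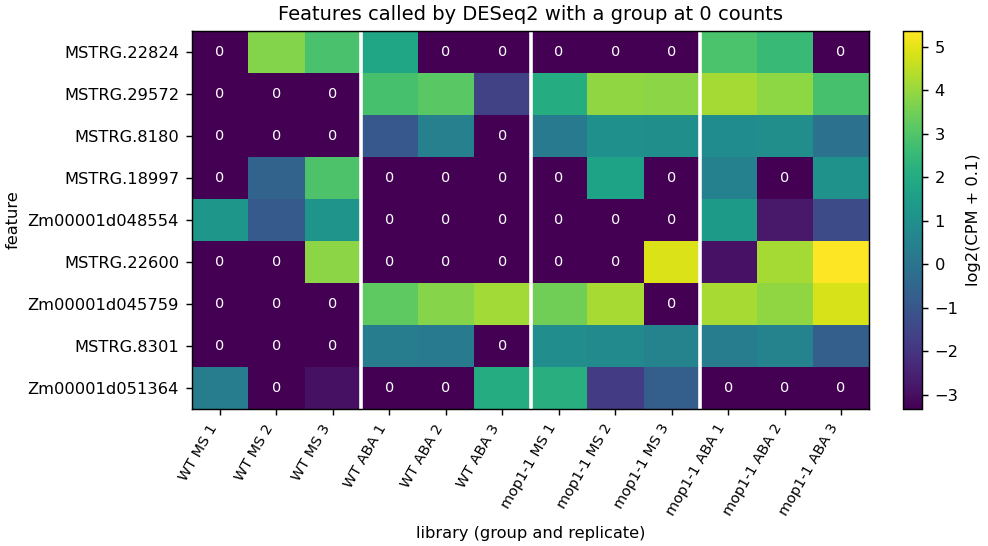
log2(CPM + 0.1) (colour) in the 12 libraries (columns, by group and replicate) for the 9 features that DESeq2 called with a group at 0 counts (rows), where 0 marks a library without a count. Zm00001d048554 is at 0 in all 6 libraries of WT ABA and mop1-1 MS, and Zm00001d045759, MSTRG.29572, MSTRG.8301 and MSTRG.8180 are at 0 in all 3 of WT MS.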

How the data were processed

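The values are raw counts per feature as deposited by the authors. Per the study's methods and the submitters' processing notes, paired reads of polyA RNA were checked with fastp 0.21.0, trimmed and mapped to B73 version 4 with HISAT2 2.2.1. StringTie 2.1.4 assembled the transcripts, and its script derives counts from coverage, so that sums need not equal read numbers. No use of strand is stated, and overlapping antisense transcripts cannot be told apart.

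Features with at least 0.58 CPM in at least 3 libraries were scaled by TMM and fitted with 4 group means in edgeR 4.0.16 (quasi-likelihood, under R 4.3.3), and p-values were adjusted by the Benjamini-Hochberg method over 26401 features. The p threshold, fold limit and 0.58 CPM follow the study, and the minimum of 3 libraries was chosen here. DESeq2 1.42.0, limma-voom (limma 3.58.1), other scalings and filters, a replicate block and leaving out each library were alternatives. The model code was tested on simulated data. Replicates differed by far more than sampling noise (chi-square over degrees of freedom 33.4 to 208), so none was deposited in duplicate. Same-numbered libraries of different groups had a mean correlation of deviations of -0.0057 (-0.16 to 0.09) and were not treated as paired.

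Names came from the study's regulators and from RefSeq genes of NAM-5.0, through older identifiers: 2056 of 28566 annotated genes matched and 308 had a name. Named in the text are features called by either tool, up to 8 named genes per direction at an unadjusted p under 0.05 and at least 5 CPM, up to 5 crossing features and 4 unnamed annotated genes and 4 assembled loci per direction, and up to 3 members per list, by smallest p. The choice of OBAP2B, MSTRG.12792, MSTRG.2284, Zm00001d003332 and list members beyond the first 3 was made with their values in view. The comparison, members and lists were chosen with earlier results of these data known. No sequences are printed.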

Additional observations from a re-analysis of the deposited data

Results flagged for a closer look

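The features below had effects of ABA that differed between WT and mop1-1 by DESeq2, while the quasi-likelihood test called none of them. With every group above 3 counts and a positive interaction, the DESeq2 adjusted p was 1.36e-07 for MSTRG.25274, 4.515e-06 for Zm00001d021168, 0.0004893 for Zm00001d053715, 0.007399 for MSTRG.14443 and 0.008967 for mrpa1. It was 0.009364 for Zm00001d039642, 0.01268 for Zm00001d007285, 0.0128 for Zm00001d005002, 0.01426 for MSTRG.24950 and 0.01994 for MSTRG.9903. It was 0.02069 for both gst31 and Zm00001d042739, 0.02875 for gst2, 0.03148 for Zm00001d026948 and 0.0362 for Zm00001d001839. With a negative interaction it was 9.088e-05 for Zm00001d043525, 0.01184 for MSTRG.23599 and 0.01426 for Zm00001d006417.

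Among features with a group at 0 counts, the DESeq2 adjusted p was 3.079e-08 for Zm00001d048554, 0.0006549 for MSTRG.29572, 0.001463 for Zm00001d051364, 0.008448 for MSTRG.22824 and 0.01072 for MSTRG.8301. It was 0.01469 for MSTRG.22600, 0.0362 for MSTRG.8180 and MSTRG.18997, and 0.04558 for Zm00001d045759.

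Zm00001d014035, Zm00001d003224 and Zm00001d006854 are listed because each ABA library lay above each MS library in WT and below each in mop1-1. Their interactions were -1.12, -1.07 and -3.01. The test of that difference did not call them in edgeR or DESeq2.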

How the results depend on the processing

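The count of 0 interaction calls by the quasi-likelihood test was also 0 with RLE or upper quartile scaling, without the low-count filter, with filterByExpr, with a robust prior, without the fold threshold, on annotated and microRNA genes alone, by limma-voom and with the replicate block (0 calls). DESeq2 called 27 and the likelihood ratio test of edgeR 22, and the cause of the gap was not tested. Leaving out each library in turn gave 0 to 2 calls. These were MSTRG.12792 and Zm00001d003332 without replicate 3 of WT ABA, and MSTRG.2284 and Zm00001d045759 without replicate 3 of mop1-1 MS. With settings chosen after seeing the data, DESeq2 called 18 without replicate 3 of WT MS and 38 without replicate 2 of mop1-1 ABA, and the quasi-likelihood test 0 without both. The negative features at an unadjusted p under 0.05 numbered 520 with all libraries, 995 without replicate 1 of WT MS and 346 without replicate 1 of WT ABA. The list medians of glutathione transferases (0.72 to 1.07), histones (-0.81 to -0.41) and the study's regulators (-0.92 to -0.42) kept their sign, and that of the MIM genes ran from -0.62 without replicate 1 of WT MS to -0.14 without replicate 3 of WT MS. Crossing features numbered 100, 99 with RLE scaling and 122 without the filter. For the 29 features for which each setting was run, the interaction kept its sign in 720 of 720 feature and setting pairs and was called in 57. Most of the 29 were named for a small p in these same libraries, so a kept sign is not independent evidence. All 57 calls came from DESeq2, with all libraries or with a library left out, or from the likelihood ratio test.

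The limits are the 3 libraries per group and the spread in WT MS. A call missed at this depth of replication does not show that the genotypes answered alike.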
